A study of Homo sapiens with 6 samples.

Results

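The imprinted genes described here are 45 human gene symbols known from the literature to be expressed mainly from 1 parental copy in at least some tissues. They were taken by name from the 58735 named genes of the count table, and they form 46 of its rows because IGF2 has a pair of rows. The libraries came from LS174T, an established human colorectal adenocarcinoma line with goblet-like traits. There were 3 libraries of wild-type cells and 3 libraries whose labels give the genotype FXYD3 knockout. No treatment or time point is given for either group, and how many clones the knockout-labelled libraries stand for was not stated. Nothing in the labels ties the 3 libraries of a group to separate cultures, and the p-values below therefore rest on a spread among libraries that may be technical.

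In an imprinted locus, DNA methylation laid down in the egg or the sperm marks a control region, and the mark decides which parental copy of the surrounding genes is transcribed. Many such genes act on fetal and placental growth, and loss of imprinting at H19 and IGF2 is a classical finding in colorectal cancer. The counts used here sum both parental copies, so neither allelic expression nor methylation was measured.

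Levels are given as CPM, reads of a gene per 1000000 reads of its library with library sizes scaled by TMM, and changes as log2 fold changes of the knockout-labelled over the wild-type libraries. A gene is called higher or lower where the adjusted p of edgeR's quasi-likelihood test, adjusted over all 15351 genes tested, was below 0.05. Libraries held 15417232 to 19453217 reads on named genes. FXYD3 itself was at 3.12, 5.11 and 3.42 CPM in the wild-type libraries and at 5.11, 6.70 and 5.06 CPM in the knockout-labelled ones. It was thus not lower under the knockout label (log2 fold change 0.54, SE 0.20, edgeR adjusted p = 0.0522), and every direction below compares labels. In 4 of the 13 alternatives FXYD3 was called higher in the knockout-labelled libraries: upper quartile scaling (edgeR adjusted p = 0.0442), no filter (0.0479), the replicate block (0.0472) and without wild-type library 2 (log2 fold change 0.79, 0.00313). All 6 epithelial markers examined were present in both groups, and 2 of them were lower in the knockout-labelled libraries: CDX1 (190 and 119 CPM in the group means, log2 fold change -0.67, edgeR adjusted p = 6.48e-09) and CDH1 (38.1 and 29.6 CPM, -0.36, edgeR adjusted p = 0.00127). EPCAM (749 and 692 CPM), VIL1 (348 and 384 CPM), CDX2 (129 and 119 CPM) and KRT20 (2.10 and 1.85 CPM) were not called. What part these markers have in the changes below was not tested. All 4 goblet cell markers examined (MUC2, SPDEF, TFF3 and FCGBP) were lower in the knockout-labelled libraries, with MUC2 at 31.5 and 15.8 CPM. Whether fewer cells expressed a gene or each cell held less of its RNA cannot be told apart in such bulk libraries. Of 8 markers of fibroblasts, immune cells and endothelium, 4 were at 0 in all 6 libraries and none was high enough to be tested.

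Of the 45 imprinted genes, 28 had enough counts to be tested, 5 had a few counts, and 12 were at 0 in all 6 libraries. Among the 28 tested, 9 were called higher, 8 lower and 11 were not called. The 17 called genes make 60.7% of those tested, while 24.3% of all genes tested were called, 12% higher and 12.4% lower. The median log2 fold change of the 28 was 0.01 and that of all genes 0.00. Their median absolute log2 fold change was 0.40, against 0.17 over all genes tested. The libraries of the groups did not overlap for 18 of the 28, and for 37.2% of all genes tested. Several of these genes lie in the same loci and are not independent of each other, and no test was made of the list as a whole. The members, and the further lists below, were chosen with earlier results of these data known, so such shares cannot be read as independent of that choice. Of the 17 calls, 9 held under all 13 alternative settings: KCNQ1OT1, SGCE, NNAT, BLCAP and DDC higher, and KCNQ1, PHLDA2, MEST and DIO3 lower.

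**Figure D1:**
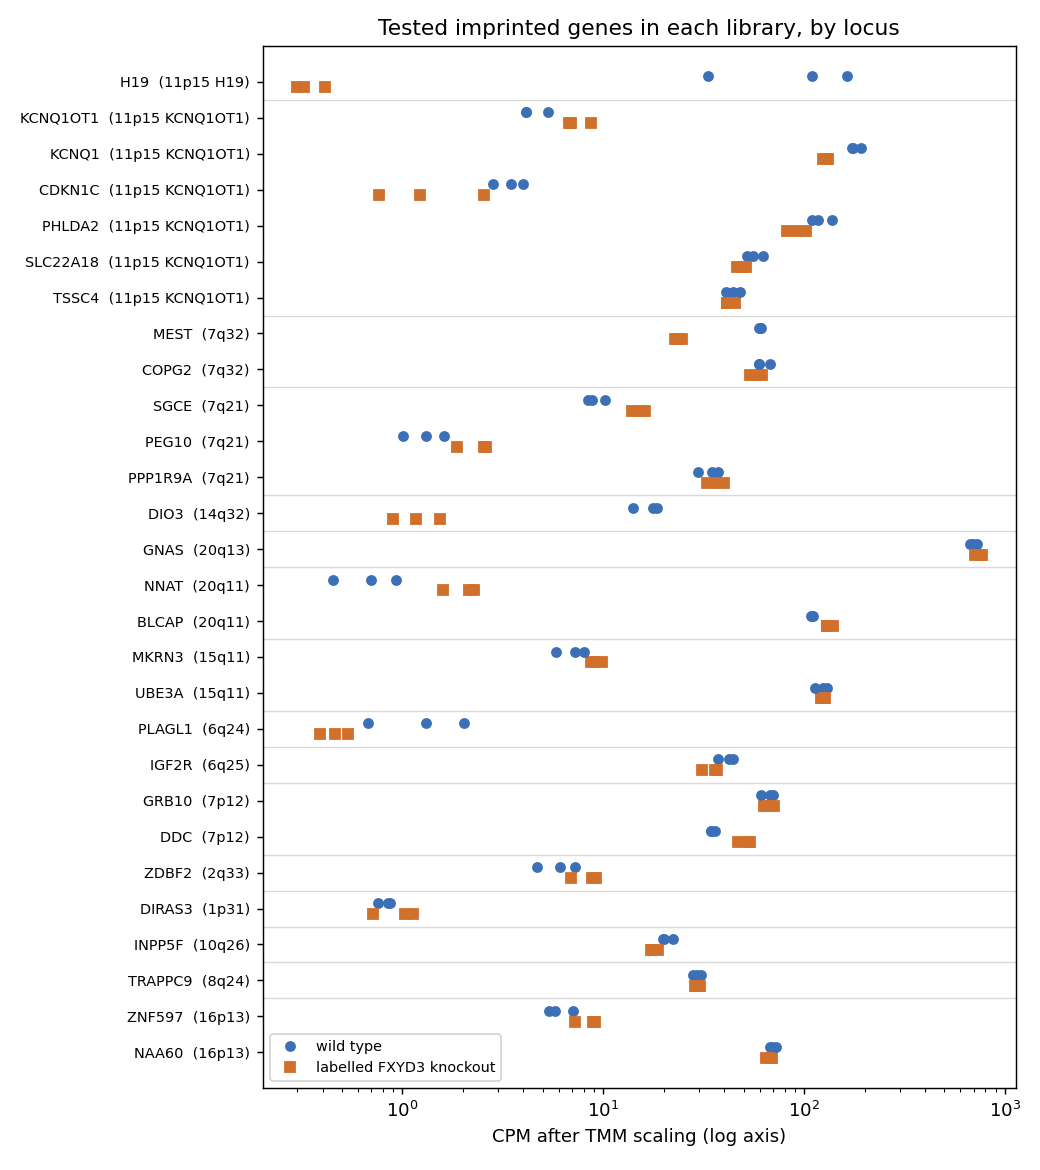
CPM of the 28 tested imprinted genes (log axis) in each of the 3 wild-type libraries (circles) and the 3 knockout-labelled libraries (squares), ordered by locus. H19, MEST and DIO3 show wide gaps between the groups, and the wild-type H19 values spread from 33.2 to 164 CPM.

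**Figure D2:**
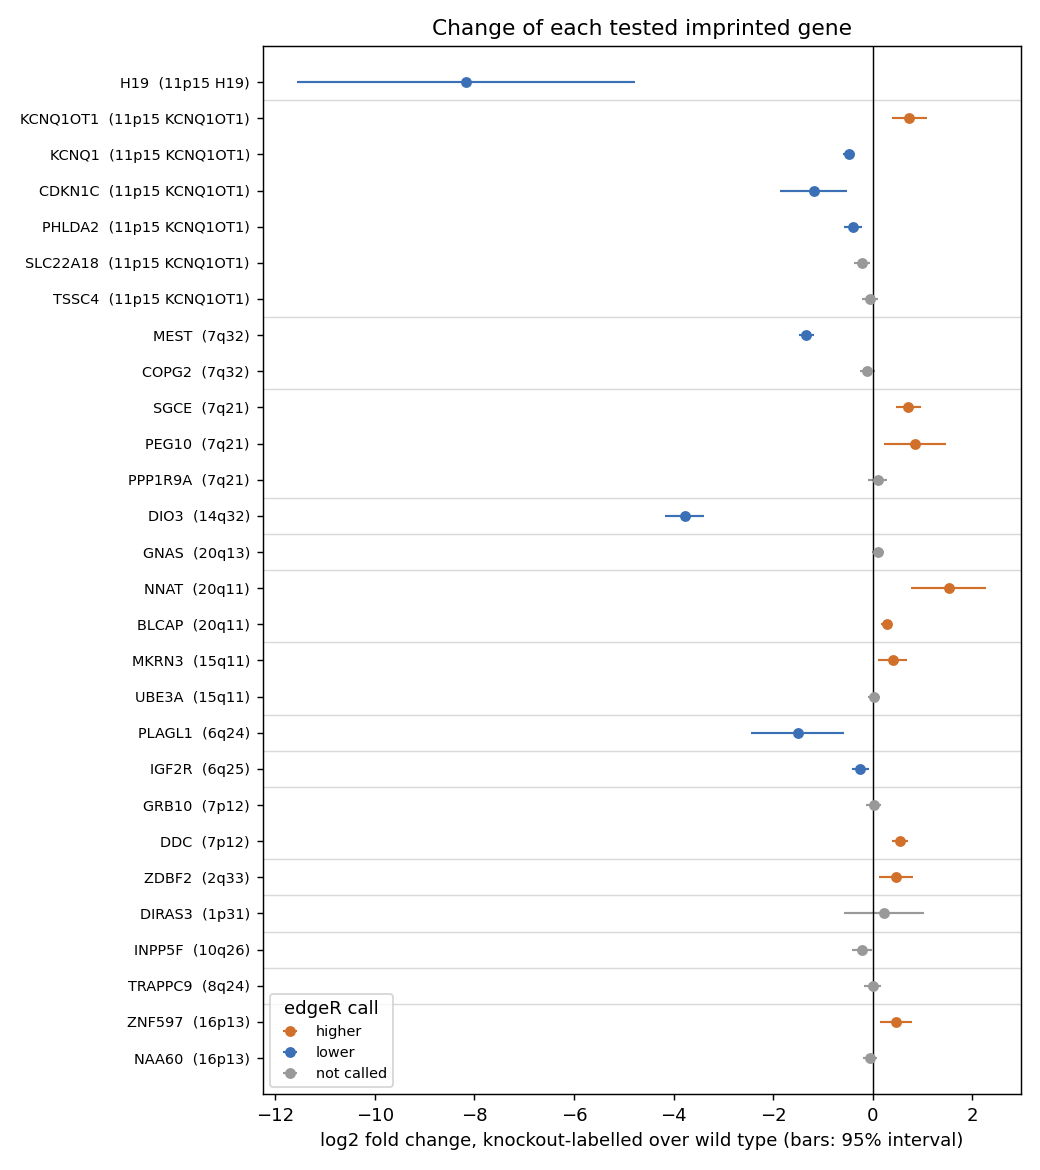
Log2 fold change of each tested imprinted gene with its 95% interval from edgeR's fit, coloured by call. The 9 genes called higher lie between 0.28 and 1.52, and the 8 called lower between -8.17 and -0.25.

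Per kilobase of gene length, PHLDA2 had the highest mean level in wild-type cells (127 CPM per kb), followed by GNAS (52.3), KCNQ1 (40.4) and H19 (35.3). In the knockout-labelled libraries the order was PHLDA2 (96.4 CPM per kb), GNAS (56.1) and KCNQ1 (28.9), with H19 at 0.119. KCNQ1OT1, counted over a very long transcript, had the lowest level per kilobase of the tested members in wild-type cells, at 0.049.

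At 11p15, H19 makes a long noncoding RNA from the maternal copy and shares enhancers with IGF2, a fetal growth factor made from the paternal copy. H19 (ENSG00000130600, GRCh38, chr11:1995176-2001470, minus strand) was at 164, 110 and 33.2 CPM in the wild-type libraries, from 2830, 1956 and 534 reads. In the knockout-labelled libraries it was at 0.323, 0.409 and 0.298 CPM, from 5, 8 and 5 reads. The wild-type libraries thus differed among themselves, yet the lowest of them lay far above every knockout-labelled library. H19 fell with a log2 fold change of -8.17 (SE 1.25, 95% interval -11.56 to -4.79, edgeR adjusted p = 0.0137), the 4th largest fall of the 15351 genes tested. Leaving out knockout-labelled library 1, 2 or 3 kept the fold change (-8.13, -8.34 and -8.08) but not the call (edgeR adjusted p = 0.0663, 0.0671 and 0.0724). Without wild-type library 3 it was -8.59 (adjusted p = 6.38e-06).

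The H19 RNA is also the precursor of miR-675, whose mature forms lie in an exon of 4 of the 12 annotated H19 transcripts (GRCh38.p14, chr11:1996800-1996822 and chr11:1996768-1996787, minus strand). They are shown, from RefSeq, because they would be made from the transcript with the largest change; capitals mark the seed, bases 2 to 8. Poly(A) libraries do not measure mature miRNAs, and the row of the miR-675 gene was at 0 in all 6 libraries.
hsa-miR-675-5p: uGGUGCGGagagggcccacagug
hsa-miR-675-3p: cUGUAUGCccucaccgcuca

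Both IGF2 rows were at 0 in all 6 libraries, as were INS-IGF2 and IGF2-AS. A count of 0 over 3 libraries allows up to 3 reads, or 0.0586 CPM in wild-type and 0.0579 CPM in knockout-labelled cells, for counting error only. Only 25% and 9.98% of the exon bases of the IGF2 rows are free of other annotated genes, and no source used here says whether reads in shared bases were counted. The nearest tested protein-coding genes on either side of H19 and IGF2 were not called: MRPL23, a mitochondrial ribosomal protein gene, was at 28.6 and 32.6 CPM (0.20, SE 0.16), and TH, tyrosine hydroxylase, at 1.18 and 0.662 CPM (-0.80, SE 0.40).

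In the neighbouring domain of 11p15, KCNQ1OT1 is a noncoding RNA transcribed antisense to KCNQ1 from the paternal copy, where it silences nearby genes in cis. KCNQ1OT1 (ENSG00000269821, chr11:2608328-2699994, minus strand) was at 4.11, 4.10 and 5.28 CPM in wild-type and at 6.79, 6.91 and 8.70 CPM in knockout-labelled libraries, with no overlap. It rose with a log2 fold change of 0.73 (SE 0.17, edgeR adjusted p = 0.00199). KCNQ1, the potassium channel gene it overlaps, was at 175, 173 and 192 CPM against 124, 132 and 130 CPM and fell by 0.48 on the log2 scale (SE 0.06, edgeR adjusted p = 3.2e-07). The pair lie on opposite strands, and 98.8% of the KCNQ1OT1 exon bases and 96.0% of those of KCNQ1 are free of other annotated genes. Where the counting ignored strand, KCNQ1OT1 could also take in unspliced KCNQ1 RNA; no source used here gives the strand setting.

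CDKN1C encodes the cyclin-dependent kinase inhibitor p57, a maternally expressed brake on growth. CDKN1C (ENSG00000129757, chr11:2883213-2885773, minus strand) was at 2.83, 3.48 and 3.97 CPM in wild-type libraries and at 1.23, 0.767 and 2.56 CPM in knockout-labelled ones. Its groups did not overlap, but knockout-labelled library 3 lay close to the lowest wild-type library. It fell with a log2 fold change of -1.19 (SE 0.32, edgeR adjusted p = 0.00896). Without knockout-labelled library 1 or 2 the call was lost (-1.07 and -0.84, edgeR adjusted p = 0.0571 and 0.0647), and without library 3 the value was -1.80 (adjusted p = 0.000176).

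PHLDA2, a small pleckstrin homology protein that restrains placental growth, was at 117, 110 and 138 CPM in wild-type and 102, 91.8 and 82.5 CPM in knockout-labelled libraries, and fell by 0.40 on the log2 scale (SE 0.09, edgeR adjusted p = 0.00209). SLC22A18, which encodes a member of the organic cation transporter family, was at 52.0, 55.7 and 62.2 against 51.5, 46.1 and 49.5 CPM. Its groups did not overlap, yet it was not called (log2 fold change -0.21, SE 0.08, edgeR adjusted p = 0.0503). It was called in 4 of the 13 alternatives, including without wild-type library 1 or 2 (edgeR adjusted p = 0.0317 and 0.0307). TSSC4 was at 44.0, 40.7 and 48.1 against 41.3, 45.2 and 41.3 CPM, with overlapping groups and a 95% interval of -0.22 to 0.11. Of the genes of this domain other than KCNQ1OT1, KCNQ1, CDKN1C and PHLDA2 were thus called lower, and SLC22A18 and TSSC4 were not called. Whether these changes have to do with that of KCNQ1OT1 was not tested.

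The flanking genes of this domain were lower as well. CD81, a tetraspanin gene, fell from 354 to 295 CPM (-0.27, SE 0.06, edgeR adjusted p = 0.000828), and NAP1L4, a histone chaperone gene, from 204 to 181 CPM (-0.18, SE 0.06, edgeR adjusted p = 0.0192). Within 1.5 Mb of the imprinted genes of 11p15, 65 tested genes are not on the list, and 21 of these (32.3%) were called lower and 3 (4.62%) higher, against 12.4% and 12% of all genes. Their median log2 fold change was -0.11. The 65 include OSBPL5, itself reported as imprinted in some tissue and called lower (-0.84), which is described with the further imprinted genes below. Chosen after their values were seen, the genes with wide changes in this window included the mucin genes MUC5AC (209 and 21.3 CPM in the group means, log2 fold change -3.30) and MUC5B (45.1 and 15.4 CPM, -1.55), and C11orf21 (3.79 and 0.543 CPM, -2.79) and TSPAN32 (4.92 and 1.03 CPM, -2.24). Of the other mucin genes there, MUC2 was lower (31.5 and 15.8 CPM, -0.99) and MUC6 was higher (395 and 480 CPM, 0.28, edgeR adjusted p = 0.0451). ASCL2, a transcription factor gene of intestinal stem cells that lies between IGF2 and TSSC4, was at 274 and 190 CPM (-0.53, SE 0.07). What part these neighbours' changes share with those of the imprinted genes was not tested.

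**Figure D3:**
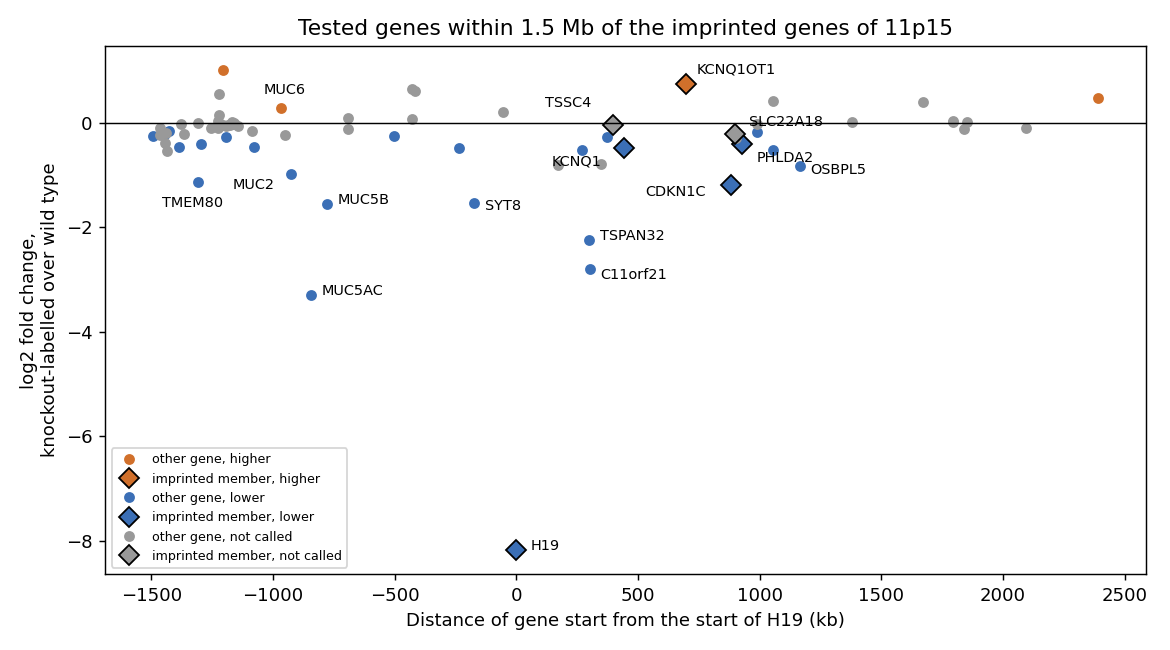
Log2 fold change of the 72 tested genes of 11p15 against the distance of their start from the start of H19 (kb), with the 7 imprinted members as diamonds and the other genes as circles. Besides H19 at -8.17, genes called lower are spread over both sides of the imprinted domains, and KCNQ1OT1 is the one imprinted member called higher.

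At 7q32, MEST encodes a hydrolase-fold protein expressed from the paternal copy. MEST (ENSG00000106484, chr7:130486171-130506465, plus strand) was at 60.9, 60.4 and 59.3 CPM in wild-type libraries and at 22.8, 24.8 and 24 CPM in knockout-labelled ones. The spread within each group was about 1 CPM (SD 0.798 and 1.01), and MEST fell with a log2 fold change of -1.34 (SE 0.08, edgeR adjusted p = 1.7e-13). COPG2, which encodes a coatomer subunit and converges on MEST from the opposite strand, was at 59.6, 67.5 and 59.8 against 57.3, 61.8 and 53.9 CPM and was not called (95% interval -0.26 to 0.04). Because MEST shares exon bases with genes on the other strand, 72.6% of its exon bases are unshared without regard to strand. KLF14, an intronless transcription factor gene of the locus, was at 0 in all 6 libraries. The flanking gene CEP41, a centrosomal protein gene 43.7 kb away, was also lower (9.98 and 4.83 CPM, log2 fold change -1.04, SE 0.15, edgeR adjusted p = 5.67e-06), whereas MKLN1 on the other side was not called (-0.03, SE 0.09).

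MEST has 5 promoters in the RefSeq table used, and counts per gene do not tell which of them gave the reads. The first and the last along the strand are shown because MEST had the smallest p of the imprinted genes after DIO3 (GRCh38.p14, plus strand, 250 bases before to 50 after the start, CpG in capitals). The upstream one, chr7:130485925-130486224, holds 13 CpG, and the downstream one, chr7:130491835-130492134, holds 25.
MEST, upstream: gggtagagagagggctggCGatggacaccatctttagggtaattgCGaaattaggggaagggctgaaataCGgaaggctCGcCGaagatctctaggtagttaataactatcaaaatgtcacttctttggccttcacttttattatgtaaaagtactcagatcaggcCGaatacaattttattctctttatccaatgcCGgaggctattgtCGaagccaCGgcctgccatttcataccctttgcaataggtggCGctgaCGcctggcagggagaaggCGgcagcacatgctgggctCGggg
MEST, downstream: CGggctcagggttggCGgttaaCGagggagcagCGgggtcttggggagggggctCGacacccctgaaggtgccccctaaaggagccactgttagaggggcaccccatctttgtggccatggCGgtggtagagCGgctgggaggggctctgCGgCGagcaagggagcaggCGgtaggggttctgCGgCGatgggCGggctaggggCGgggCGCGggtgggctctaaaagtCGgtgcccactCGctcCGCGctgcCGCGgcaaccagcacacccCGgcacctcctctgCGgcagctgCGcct

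MEST also carries miR-335 in an intron: none of its 17 annotated transcripts has it in an exon. The mature forms (chr7:130496126-130496148 and chr7:130496162-130496183, plus strand) are shown, with the seed in capitals, because MEST fell, and the row of the miR-335 gene was at 0.
hsa-miR-335-5p: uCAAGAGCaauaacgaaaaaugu
hsa-miR-335-3p: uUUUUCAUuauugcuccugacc

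At 7q21, SGCE, the gene of epsilon-sarcoglycan, and PEG10, a gene derived from a retrotransposon, start head to head and are both paternally expressed. SGCE was at 10.2, 8.43 and 8.76 CPM in wild-type and at 15.1, 13.9 and 16.1 CPM in knockout-labelled libraries, and rose with a log2 fold change of 0.72 (SE 0.12, edgeR adjusted p = 5.03e-05). PEG10 was at 1.62, 1.01 and 1.30 against 1.87, 2.61 and 2.56 CPM and rose by a log2 fold change of 0.85 (SE 0.30, edgeR adjusted p = 0.0420). The PEG10 call rests on few reads, 18 to 51 per library. It was lost in 7 of the 13 alternatives. Among them were the fits without wild-type library 2 or 3 (edgeR adjusted p = 0.121 and 0.0827) and without knockout-labelled library 2 or 3 (0.136 and 0.129). DESeq2 (adjusted p = 0.0745), no filter and the replicate block were the others. PPP1R9A, which encodes the neuronal scaffold neurabin, was at 34.8, 37.2 and 29.7 against 36.3, 32.7 and 39.9 CPM, with a 95% interval of -0.09 to 0.28. Of the flanking genes, BET1 was not called (-0.15, SE 0.09) and PON2, a paraoxonase gene, was lower (-0.25, SE 0.07, edgeR adjusted p = 0.00576).

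At 14q32, DIO3 encodes the deiodinase that inactivates thyroid hormone. DIO3 (ENSG00000197406, chr14:101561351-101563452, plus strand, no bases shared with another gene) was at 18.6, 14.1 and 17.7 CPM in wild-type libraries, from 321, 251 and 285 reads. In knockout-labelled libraries it was at 1.16, 1.53 and 0.894 CPM, from 18, 30 and 15 reads. All 3 knockout-labelled libraries were thus far below all 3 wild-type ones. DIO3 fell with a log2 fold change of -3.78 (SE 0.19, edgeR adjusted p = 7.98e-15), the 86th largest fall of all genes tested. The antisense gene DIO3OS, named after its values were seen, had 130, 155 and 104 reads in wild-type and 27, 23 and 23 in knockout-labelled libraries (log2 fold change -2.41, SE 0.22, edgeR adjusted p = 1.16e-09). DIO3OS starts 0.92 kb before DIO3 on the other strand.

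The other members of 14q32 were at 0 in all 6 libraries. They are DLK1, a transmembrane protein related to Notch ligands, the noncoding RNAs MEG3 and MEG8, and RTL1, a retrotransposon-derived gene. Of their exon bases, 100% for DLK1, 97.4% for MEG3, 91.1% for RTL1 and 83.0% for MEG8 are free of other annotated genes. Beside the locus, BEGAIN was not called (0.21, SE 0.23) and PPP2R5C, a phosphatase subunit gene, was lower (-0.32, SE 0.06, edgeR adjusted p = 8.8e-05). The DIO3 promoter (chr14:101561245-101561544, plus strand, 28 CpG) and that of H19 (chr11:2001217-2001516, minus strand, 6 CpG) are shown because these genes had the largest falls among the members, with CpG in capitals.
DIO3: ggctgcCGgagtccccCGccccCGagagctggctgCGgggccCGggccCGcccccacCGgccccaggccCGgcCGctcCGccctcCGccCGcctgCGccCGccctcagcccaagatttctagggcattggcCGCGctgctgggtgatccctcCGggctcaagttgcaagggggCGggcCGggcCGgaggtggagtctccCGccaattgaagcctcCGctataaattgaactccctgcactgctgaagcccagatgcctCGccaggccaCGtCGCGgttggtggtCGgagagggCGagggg
H19: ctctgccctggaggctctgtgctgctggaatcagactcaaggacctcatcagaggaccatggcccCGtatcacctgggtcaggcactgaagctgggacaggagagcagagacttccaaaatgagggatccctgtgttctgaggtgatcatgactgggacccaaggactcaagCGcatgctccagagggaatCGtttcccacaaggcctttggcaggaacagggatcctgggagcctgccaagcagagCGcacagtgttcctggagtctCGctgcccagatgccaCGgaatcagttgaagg

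Outside chromosome 8, 29 of the 45 symbols had at least 1 promoter in the RefSeq table, 60 promoters in all. Some of these overlap or are shared between genes. Promoters on chromosome 8, where KCNK9 and TRAPPC9 lie, were left out of the 60 but not of the set of all promoters. The median of the 60 was 18.5 CpG per 300 bases, against 14 over all 35116 promoters. The hexamer TGCCGC, the core of the methylation-sensitive motif bound by ZFP57, occurred on either strand in 24 of the 60 (40.0%) and in 16.7% of all promoters. The promoters of H19 and DIO3 shown above hold none, while the downstream MEST promoter holds 3. A match is a stretch of letters and not a bound site.

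On chromosome 20, the 20q11 pair NNAT and BLCAP were both higher. NNAT, the neuronatin gene, is paternally expressed and lies inside the transcript of BLCAP. NNAT was at 0.694, 0.450 and 0.931 CPM in wild-type libraries, from 12, 8 and 15 reads. In knockout-labelled libraries it was at 2.13, 1.59 and 2.26 CPM, from 33, 31 and 38 reads. Its groups did not overlap, and it rose with a log2 fold change of 1.52 (SE 0.37, edgeR adjusted p = 0.00265). BLCAP, on the other strand, was at 110, 108 and 111 against 130, 139 and 130 CPM and rose by 0.28 on the log2 scale (SE 0.06, edgeR adjusted p = 0.000626). Of the NNAT exon bases, 93.6% are unshared with exons of other genes. Where the counting ignored strand, NNAT could also take in unspliced BLCAP RNA, and no source used here gives the strand setting. The flanking genes SRC and CTNNBL1 were not called (0.01, SE 0.06, and -0.04, SE 0.08).

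GNAS at 20q13, which encodes the stimulatory G protein alpha subunit, was at 697, 670 and 724 against 762, 766 and 713 CPM. Its groups overlapped and it was not called (log2 fold change 0.10, 95% interval -0.02 to 0.22). The gene is imprinted for some of its alternative first exons only, which counts per gene do not separate. Its antisense RNA GNAS-AS1 had 5, 0 and 8 reads in wild-type and 3, 15 and 6 in knockout-labelled libraries. L3MBTL1, which encodes a chromatin-binding protein, had 0, 4 and 0 against 0, 2 and 1 reads. Neither was tested. The flanking genes NPEPL1, NELFCD, SRSF6 and SGK2 were not called.

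In the Prader-Willi and Angelman region at 15q11, SNRPN, SNURF, NDN and MAGEL2, which are transcribed from the paternal copy, were at 0 in all 6 libraries. All exon bases of NDN and MAGEL2 are free of other genes, but only 66.4% of those of SNRPN and 30.7% of those of SNURF are, since they share a transcript. The long host transcript SNHG14 had 8, 2 and 1 reads against 1, 4 and 2. MKRN3, a ring-finger gene of the same region, was expressed, at 7.23, 7.98 and 5.84 CPM in wild-type and 8.66, 9.87 and 9.18 CPM in knockout-labelled libraries. It was called higher (log2 fold change 0.40, SE 0.14, edgeR adjusted p = 0.0461). That call was lost in 9 of the 13 alternatives, including without wild-type library 1 or 3 (0.0968 and 0.226) and without knockout-labelled library 1, 2 or 3 (0.0627, 0.162 and 0.0946). UBE3A, a ubiquitin ligase gene imprinted in neurons, was at 124, 129 and 114 against 126, 121 and 127 CPM (95% interval -0.10 to 0.15).

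Of the flanking genes of 15q11, TUBGCP5 was not called (0.03, SE 0.08). ATP10A, a phospholipid transporter gene itself reported as imprinted in some tissues, was lower, at 47.3, 50.7 and 51.6 against 35.7, 33.2 and 36.4 CPM (log2 fold change -0.51, SE 0.08, edgeR adjusted p = 1.04e-05). At 19q13 both members, the zinc finger genes PEG3 and ZIM2, were at 0 in all 6 libraries, and it was the only locus on the list with no read. The flanking ZSCAN5A (0.18, SE 0.18) and ZNF264 (-0.02, SE 0.12) were expressed and not called. Over the list, 11 of the 40 protein-coding rows (27.5%) were at 0, against 3621 of the 19951 protein-coding rows of the table (18.1%).

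On chromosome 6, PLAGL1 encodes a zinc finger transcription factor that is paternally expressed. PLAGL1 was at 2.02, 0.674 and 1.30 CPM in wild-type libraries, from 35, 12 and 21 reads. It was at 0.388, 0.460 and 0.536 CPM in knockout-labelled libraries, from 6, 9 and 9 reads. It fell with a log2 fold change of -1.51 (SE 0.45, edgeR adjusted p = 0.0152). The wild-type libraries spread widely, and the call was lost without wild-type library 1 (-1.08, edgeR adjusted p = 0.191) and without knockout-labelled library 1 or 2 (0.0710 and 0.0578). HYMAI, a noncoding RNA from the same promoter, had 1 read in 1 knockout-labelled library and none elsewhere. Its neighbours LTV1 and SF3B5 were not called.

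IGF2R at 6q25 encodes the receptor that takes up IGF2 for degradation. IGF2R was at 42.4, 44.1 and 37.2 CPM in wild-type and 31.2, 36.7 and 36.1 CPM in knockout-labelled libraries. It was called lower (log2 fold change -0.25, SE 0.09, edgeR adjusted p = 0.0334). That call was lost in 7 of the 13 alternatives, including upper quartile scaling (0.0522), without wild-type library 1 or 2 (0.120 and 0.0836) and without knockout-labelled library 1 (0.185). At 7p12, DDC, the aromatic amino acid decarboxylase gene, was at 35.8, 34.6 and 34.5 against 52.9, 54.1 and 46.9 CPM. DDC rose with a log2 fold change of 0.55 (SE 0.08, edgeR adjusted p = 3.52e-06). GRB10, an adaptor that dampens insulin receptor signalling, was next to it at 67.6, 60.9 and 69.8 against 63.3, 66.5 and 70.8 CPM and was not called (95% interval -0.13 to 0.16).

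At the remaining loci the changes were small. ZNF597, a zinc finger gene at 16p13, was at 7.06, 5.34 and 5.78 against 8.86, 9.11 and 7.21 CPM and was called higher (log2 fold change 0.47, SE 0.16, edgeR adjusted p = 0.0269). The call was lost with DESeq2 and without wild-type library 2 or 3 (edgeR adjusted p = 0.0754 and 0.0699). The call was also lost without knockout-labelled library 1 or 2 (edgeR adjusted p = 0.0936 and 0.121). Its neighbour NAA60, an acetyltransferase gene, was at 69.1, 67.9 and 72.2 against 68.3, 68.9 and 64.6 CPM and was not called. ZDBF2 at 2q33 was at 4.69, 7.25 and 6.09 against 9.24, 6.91 and 8.76 CPM. It was called higher although its groups overlap (log2 fold change 0.46, SE 0.17, edgeR adjusted p = 0.0464). The ZDBF2 call was lost in 7 of the 13 alternatives, including DESeq2, limma voom and the replicate block. Without wild-type library 1 or 3 it was not called (0.30 and 0.46, edgeR adjusted p = 0.274 and 0.0732), nor was it without knockout-labelled library 1 or 3 (0.38 and 0.42, edgeR adjusted p = 0.188 and 0.143).

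Of the members not called, INPP5F, a phosphoinositide phosphatase gene at 10q26, had 345, 396 and 321 reads against 271, 337 and 315, and its CPM did not overlap between the groups (log2 fold change -0.22, SE 0.10, edgeR adjusted p = 0.112). TRAPPC9, a vesicle trafficking gene at 8q24, was at 30.8, 28.1 and 29.2 against 28.5, 29.4 and 30.2 CPM (95% interval -0.17 to 0.17). DIRAS3, a Ras-related gene at 1p31, had 13, 15 and 14 reads against 16, 22 and 12, and its 95% interval of -0.58 to 1.03 leaves room for changes in either direction. NAP1L5 at 4q22 had 6, 7 and 6 against 10, 3 and 9 reads, and the potassium channel gene KCNK9 at 8q24 had 2, 5 and 2 against 1, 3 and 1. The nearest tested protein-coding gene can be far from a locus. KHDRBS3 lies 3944 kb from the 8q24 locus and UPP1 2350 kb from the 7p12 locus, both outside the 1.5 Mb windows described below. Of the genes flanking the loci from IGF2R on, KHDRBS3 at 8q24 was higher (0.43, SE 0.10, edgeR adjusted p = 0.00237). The others were not called, with log2 fold changes from -0.64 (MDH1B) to 0.63 (SLC22A3): MRPL18 and SLC22A3 at 6q25, UPP1 and COBL at 7p12, EEF1B2 and MDH1B at 2q33, PYURF and FAM13A at 4q22, GNG12 and WLS at 1p31, BAG3 and MCMBP at 10q26, CHRAC1 at 8q24, and ZNF174 and CLUAP1 at 16p13.

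**Figure D4:**
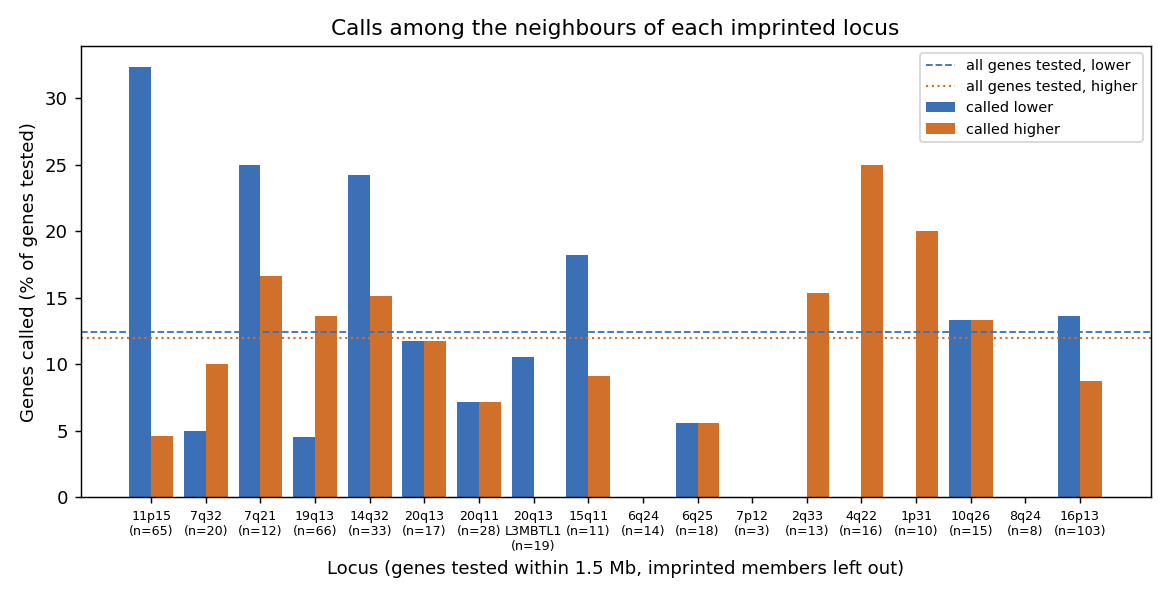
Share of tested genes called lower (left bars) or higher (right bars) within 1.5 Mb of each imprinted locus, with the imprinted members left out and the number of genes under each locus; dashed and dotted lines give the shares over all genes, 12.4% and 12%. The 11p15 window has 32.3% called lower, 14q32 has 24.2% of 33 genes and 19q13 has 4.55% of 66.

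Calls among the neighbours differed from locus to locus. The window of 14q32 held 8 genes called lower and 5 called higher of 33, that of 19q13 held 3 lower and 9 higher of 66, and that of 16p13 held 14 lower and 9 higher of 103. Among smaller windows, that of 7q21 held 3 lower and 2 higher of 12, and that of 4q22 held 0 lower and 4 higher of 16. No neighbour was called within the windows of 6q24, 7p12 and 8q24, which held 14, 3 and 8 tested genes. Neighbours share chromosomal regions and are not independent, and these shares were not tested against each other.

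Imprints are kept by maintenance DNA methylation and by zinc finger proteins that recruit silencing complexes. Of 25 regulators of imprints examined, 17 were tested, with 2 higher and 3 lower (5 of 17, against 24.3% of all genes). DNMT3B, a de novo DNA methyltransferase gene, was at 11.8, 11.5 and 9.44 CPM in wild-type and 5.17, 4.96 and 6.26 CPM in knockout-labelled libraries, and fell by a log2 fold change of -1.0 (SE 0.15, edgeR adjusted p = 7.46e-06). HELLS, a chromatin remodeller needed for DNA methylation, fell by 0.30 on the log2 scale (SE 0.07, edgeR adjusted p = 0.00126), from 79.8 to 64.8 CPM. DNMT1, the maintenance methyltransferase gene, named after its values were seen, was the third that fell, from 388 ± 2.76 to 340 ± 9.39 CPM (SD, n = 3 each; log2 fold change -0.19, edgeR adjusted p = 0.0113).

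TET2, which encodes a 5-methylcytosine oxidase, rose from 33.5 to 45.8 CPM (log2 fold change 0.45, SE 0.09, edgeR adjusted p = 0.000679). ZNF445, a zinc finger protein gene that protects imprints, was higher (36.8 and 46.7 CPM, 0.35, SE 0.09, edgeR adjusted p = 0.00569), with overlapping groups. Its call was lost without knockout-labelled library 3 (adjusted p = 0.0506). UHRF1 (155 and 143 CPM), TRIM28 (772 and 724 CPM) and CTCF (86.3 and 88.0 CPM), named after their values were seen, were not called. ZFP57, CTCFL, DPPA3, NLRP7 and KHDC3L were at 0 in all 6 libraries. DNMT3A was listed at no more than 0.129 CPM in any library.

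The insulin-like growth factor axis, on which IGF2 and IGF2R act, had 14 of 23 genes tested, with 2 higher and 5 lower (7 of 14, against 24.3% of all genes). IRS1, an adaptor of the insulin and IGF1 receptors, was at 36.6, 36.7 and 33.7 against 58.4, 53.7 and 63.3 CPM and rose with a log2 fold change of 0.71 (SE 0.08, edgeR adjusted p = 6.21e-08). Among secreted binding proteins, IGFBP6, which prefers IGF2, fell from 2.09 to 0.303 CPM (log2 fold change -2.73, SE 0.41, edgeR adjusted p = 8.65e-06). IGFBP4 fell from 394 to 305 CPM (-0.37, SE 0.06, edgeR adjusted p = 3.76e-05), and STC2, an inhibitor of the protease that cleaves IGFBP4, from 107 to 86.8 CPM (-0.31, SE 0.06, edgeR adjusted p = 0.000471).

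Of 25 further genes reported as imprinted in some human tissue, 9 were tested, with 1 higher and 5 lower (6 of 9, against 24.3% of all genes). Their median log2 fold change was -0.51. OSBPL5, an oxysterol-binding protein gene at the end of the 11p15 cluster, was at 148, 146 and 150 against 79.4, 82.9 and 86.7 CPM and fell by a log2 fold change of -0.84 (SE 0.06, edgeR adjusted p = 1.12e-11). ZNF331, a zinc finger gene, was at 7.29, 6.97 and 5.53 against 2.59, 2.25 and 4.05 CPM and fell by -1.16 (SE 0.21, edgeR adjusted p = 0.000113). ANO1, a calcium-activated chloride channel gene, was the gene of this list that rose, from 113 to 142 CPM (0.33, SE 0.06, edgeR adjusted p = 5.69e-05). ATP10A, described beside 15q11, is also on it. OSBPL5 is counted among the neighbours of 11p15 called lower as well, and ATP10A among those of 15q11.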

How the data were processed

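Poly(A) RNA of 3 wild-type and 3 FXYD3 knockout-labelled LS174T libraries was analysed from the counts per gene that the authors deposited, with gene names, lengths and coordinates in the same table. The submitters' processing notes list HISAT2 2.0.5, featureCounts 1.5.0-p3 and a mouse build, although identifiers and coordinates match human GRCh38 (GENCODE 29). No source used here gives the annotation, the strand setting or the treatment of multi-mapped reads. Groups and library numbers come from the labels. The 232 rows without a gene name were left out. They held 0.13 to 0.15% of reads in the wild-type and 0.22 to 0.25% in the knockout-labelled libraries.

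Genes passing filterByExpr (minimum count 10) were fitted with edgeR 4.0.16 (R 4.3.3; TMM scaling, robust quasi-likelihood test) using the 2 groups only, with Benjamini-Hochberg adjustment over all 15351 genes; the method was tested on simulated data. Standard errors are the log2 fold change over the square root of F. CPM uses TMM-scaled library sizes. Pearson correlations of log2 CPM were 0.989 to 0.992 within groups and 0.962 to 0.967 between them, and no pair of libraries was within sampling noise. Alternatives were DESeq2's size factors, upper quartile and total count scaling, no filter, DESeq2 1.42.0, limma voom 3.58.1, a replicate block, and leaving out each library.

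Every member is accounted for; called members, and those with at least 1 CPM in either group, are given in every library, others by reads. Up to 4 called genes of each other list, by smallest p, and the nearest tested protein-coding gene on either side of a locus are named; other genes outside the members were named after their values were seen. Members and lists were chosen with earlier results of these data known, and the 1.5 Mb windows after the data were seen. Promoter and miRNA sequences are from RefSeq (GRCh38.p14).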

Additional observations from a re-analysis of the deposited data

How the results depend on the processing

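Under the 13 alternatives, 306 of the 364 log2 fold changes of the 28 tested imprinted genes kept their direction and their side of the threshold, 43 lost the call, 4 gained it and 11 changed sign; 15 genes did none of these in any alternative. Imprinted genes called higher numbered 9, but 5 with DESeq2 and 5 to 7 with 1 library left out; those called lower numbered 8, and 4 to 8 with 1 library left out. The leave-one-out counts were 1 to 3 for regulators called higher (2 with all libraries), and for the IGF axis 1 to 3 higher (2, and 4 without the filter) and 3 to 6 lower (5). The cause of these differences was not tested. The leave-one-out fits have fewer samples, which was not separated from the influence of the library left out. Sign changes were limited to genes near 0. TRAPPC9 was at -0.00055 with DESeq2's size factors, -0.011 without the filter, -0.00059 with DESeq2 and -0.031 to 0.034 with 1 library left out. The leave-one-out ranges were -0.11 to 0.0061 for TSSC4, -0.028 to 0.067 for UBE3A and -0.041 to 0.054 for GRB10. With the replicate block, 6 imprinted genes were called higher and 7 lower, and 1478 and 1475 of all genes, against 1839 and 1896 without it. Same-numbered libraries did not deviate together (Pearson r 0.023, -0.075 and -0.096 across genes, and not every library correlated best with its own number), so the numbers were not taken to pair the libraries. Depth limits the genes with few reads: PEG10, NNAT, PLAGL1, CDKN1C and DIRAS3 rest on fewer than 100 reads in every library. The 12 symbols at 0 allow up to 0.0586 CPM in wild type for counting error only. That limit does not cover reads left uncounted in exon bases shared with other genes, as IGF2, SNRPN, SNURF and ZIM2 have.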

Other observations

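The spread of H19 among the wild-type libraries was unusual for these data. Of 11060 genes with at least 5 CPM in wild type, 5 had a highest over lowest wild-type library of at least 3-fold and 21 of at least 2-fold, with a median of 1.13 over all of them. H19 ranked 3rd, at 4.94-fold, behind GAGE2A (6.74-fold) and GAGE1 (5.77-fold), members of a cancer-testis family of near-identical copies, so their counts are uncertain. U2AF1 (3.47-fold) and SMN1 (3.33-fold), which also have near-identical copies, followed. H19 was the only gene of these 5 that was called between the groups. The wild-type library with the lowest H19 level, library 3, was not low for the other imprinted genes of 11p15: it had the highest wild-type level of KCNQ1OT1, KCNQ1, CDKN1C, PHLDA2, SLC22A18 and TSSC4. This order was not particular to the imprinted genes. Of the genes flanking the 11p15 domains, MRPL23, TH and CD81 were also highest in wild-type library 3, and NAP1L4 was not. Such an order within a group of 3 was not tested.

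The share of genes called lower around the imprinted genes of 11p15 was above that over all genes in all 13 alternatives. It ranged from 26.2% of the 65 neighbours (without knockout-labelled library 3, against 8.72% of all genes) to 36.9% (without wild-type library 2, against 15.2%). The alternatives refit the same libraries over the same 65 genes, in a window chosen after the data were seen. They show only how the share depends on the processing and are not independent of each other.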
